A study of Argopecten irradians with 2 samples.

Results

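The genes described here encode the mitochondrial ribosome, the translocases that bring proteins into mitochondria, the peptidase that trims their targeting sequences, the prohibitins and the ATP-driven proteases Lon, Clp and AFG3-like protein 2. They were collected in gills of the bay scallop *Argopecten irradians* by words in the best Swiss-Prot hit of each unigene, an assembled transcript, with at least 10 reads in both libraries together. Of 60308 unigenes, 126 were kept. They comprised 35 unigenes of the small and 53 of the large mitoribosomal subunit, 5 of the outer membrane translocase (TOM), 21 of the inner membrane translocases (TIM), 2 of the processing peptidase, 3 prohibitins and 7 proteases. Together they stood for 101 protein names. The member with the fewest reads had 24, and the 2 matches under the minimum had 2 and 4 reads, with best Nr hits in primates. All 126 members had a best Nr hit in an animal, a mollusc for 63 of them, and their Swiss-Prot hits had E-values of at most 9e-07. The best Nr hit of the kept Tim9 unigene Unigene10629_All was also in a primate. An animal hit does not show that a transcript is of the scallop.

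One library was made from gills of control scallops kept with the solvent DMSO (0 mg/L palmitoleic acid), and the other from gills of scallops exposed to 80 mg/L palmitoleic acid (PA), a fatty acid that kills a toxic dinoflagellate, dissolved in the same solvent. Both were sampled after exposure of up to 48 h. The labels give a pool of 18 scallops per library, while the methods describe 3 pools of 6 scallops. Genotype, strain and age of the animals were not given in the sources used here. With 1 library per condition, no difference has a replicate check, and every p-value compares 2 libraries and not 2 conditions.

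Expected counts, called reads here, summed to 10305482 for control gills and 10414545 for PA gills. The members took 0.265% of the control reads and 0.210% of the PA reads. As a check of the tissue, 111 unigenes of cilia proteins (such as tektins and axonemal dyneins) held 15654 control and 30154 PA reads, with 28 of them called higher and 2 lower; 1 of them, a dynein heavy chain, was at 0 in the control library and none in the PA library. For muscle proteins, 61 unigenes held 12351 and 13267 reads, with 16 called higher and 12 lower; a calponin was at 0 in the control library, and a troponin, another calponin and a titin contig were at 0 in the PA library. Of all unigenes with at least 10 reads, 13.3% were called higher and 10.7% lower. The 2 germ cell unigenes held 6 and 24 reads. The cilia transcripts therefore differed between the 2 libraries, and their part in the results below was not tested. In pooled tissue, fewer cells of a type and less RNA per cell cannot be told apart.

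Mitochondria keep a small genome and translate its few messages, most of them for respiratory chain subunits, on their own ribosome, whose proteins are all nuclear-encoded in animals. These and nearly all other mitochondrial proteins are made in the cytosol, recognised by TOM and passed to TIM23, which takes proteins with a cleavable presequence into the matrix, or to TIM22, which inserts carrier proteins. An ATP-driven motor pulls matrix proteins through, the processing peptidase removes the presequence, and Lon, ClpXP and the AFG3-type protease degrade misfolded or unassembled proteins. The prohibitins form a ring in the inner membrane that is bound to the AFG3-type protease. The gill, which pumps water with beating cilia, uses much ATP.

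Fold changes are PA over control, from FPKM (fragments scaled to unigene length and library size), with 95% Clopper-Pearson intervals in parentheses that cover counting error only. Calls required a change of at least 2-fold and an FDR no higher than 0.001 in the test of Audic and Claverie, adjusted by Benjamini-Hochberg over all unigenes. Of the 126 members, 13 (10.3%) were called higher and 17 (13.5%) lower, where 13.3% of all unigenes with at least 10 reads were called higher and 10.7% lower. The members' median log2 fold change was −0.013, and that of all such unigenes 0.21. Relative to this shift of the whole library the members' median was lower by 0.226, with 51 members above the median of all unigenes and 75 below it. Scaling by TMM factors moved all values by −0.245. Over all unigenes with at least 10 reads it changed the calls from 5096 higher and 4104 lower to 3828 and 5385, and over the members from 13 and 17 to 8 and 24. Members had more reads than most unigenes, and among those with at least 50 reads 13 members were called higher and 15 lower, against 19.9% and 15.5% of all unigenes with as many reads. With edgeR's exact test and an assumed biological coefficient of variation of 0.2, 3 members were called higher and 11 lower (5.06% and 4.76% of all unigenes), and with 0.4 none and 3 (0.581% and 1.02%).

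Members outside the ribosome had lower fold changes than those of the ribosome. The 88 mitoribosomal unigenes had a median of 0.18, close to that of all unigenes, and their reads summed to 10368 against 11285 in PA gills (log2 0.11, 0.07 to 0.15). Under TMM scaling this median became −0.07, where that of all unigenes was −0.03. The other 38 members had a median of −0.44, and their reads summed to 16922 and 10618 (log2 −0.69, −0.72 to −0.65). Of these 38, 29 lay below the median of all unigenes. This contrast rests on 1 library per condition and has no test beyond the counting intervals of the sums.

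**Figure D1:**
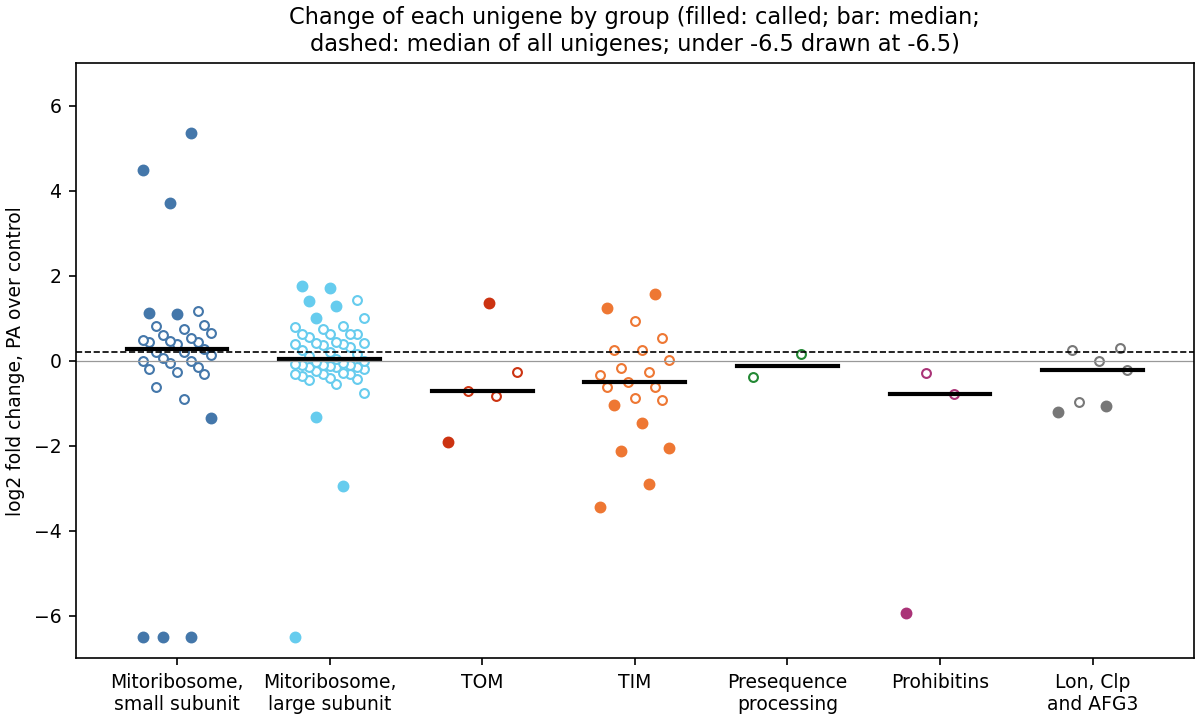
Log2 fold change (PA over control) of each of the 126 unigenes by group, with called unigenes filled, group medians as bars and the median of all unigenes (0.21) as a dashed line. The medians of the small and large mitoribosomal subunits (0.27 and 0.04) lie near the dashed line, and those of the other groups below it, from −0.12 to −0.77; the 4 members at 0 in the PA library are drawn at the lower edge.

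In levels per length, most members lay within a narrow band, and a few import and prohibitin transcripts stood above it. The median FPKM of the mitoribosomal unigenes was 9.69 in control gills and 12.19 in PA gills, with a highest value of 55.9 FPKM for L23 in the control library. TOM7 was the most abundant member in the control library at 371 FPKM, ahead of contig 2 of prohibitin-2 at 129 FPKM, prohibitin at 89.1 FPKM and the beta subunit of the processing peptidase at 88.5 FPKM. In the PA library the beta subunit (98.2 FPKM) and TOM7 (97.9 FPKM) were nearly level.

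**Figure D2:**
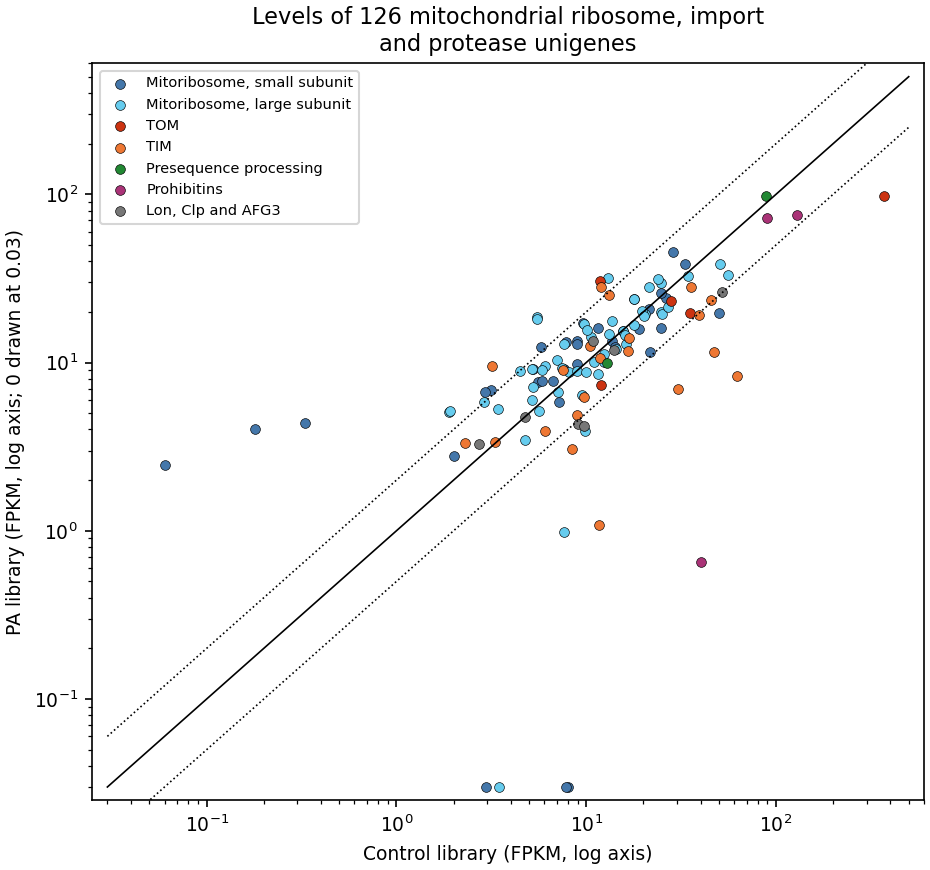
FPKM of each member in the control (x axis) and PA library (y axis), both on log axes, with the line of equality and dotted lines at a 2-fold change. Most points lie between the dotted lines; TOM7 stands at 371 and 97.9 FPKM, and the 4 members at 0 in the PA library are drawn at 0.03.

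In the TOM complex, 1 of 5 members was called lower and 1 higher. TOM7 (Unigene16820_All, 513 bp), a small subunit that in yeast regulates the assembly of the complex, had 1768 control and 471 PA reads, or 371 and 97.9 FPKM. It was 3.79-fold lower in the PA library (log2 −1.92, −2.07 to −1.78). TOM20 (Unigene14351_All), the receptor for presequences, went the other way, with 110 and 285 reads, and was 2.57-fold higher (log2 1.36, 1.04 to 1.69). The other subunits were not called. TOM70, the receptor for carrier proteins, had 827 and 467 reads (log2 −0.84, −1.01 to −0.67), and was called lower under TMM (−1.08) and median-of-ratios scaling (−1.06). TOM40, the channel, had 222 and 137 reads (log2 −0.71, −1.03 to −0.40). TOM22, the central receptor, had 607 and 508 reads (log2 −0.27, −0.44 to −0.10). All 3 intervals lay below 0, so that within counting error TOM20 alone of the 5 had more reads for its depth in the PA library.

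In the inner membrane, both regulators of the import motor were called lower when the reads of each protein were summed. Tim14 and Tim16, a J-domain protein and its J-like partner, control the mitochondrial Hsp70 that drives import into the matrix. Tim16 (Unigene10650_All) had 165 control and 38 PA reads, 30.6 and 6.98 FPKM, and was 4.38-fold lower (log2 −2.13, −2.68 to −1.62). Tim14 was assembled as 3 contigs of 1 cluster (CL4625). Contig 1 fell from 672 to 90.8 reads and contig 3 from 525 to 128 reads, while contig 2 rose from 135 to 320 reads. The cluster as a whole was called lower, with 1331 and 539 reads (log2 −1.32, −1.47 to −1.17). TIM44, which anchors Hsp70 to the channel, had 70 and 72 reads. The Hsp70 itself (stress-70 protein), contig 2 of cluster CL5072, had 2035 and 2029 reads (log2 −0.02, −0.11 to 0.07). A contig of its nucleotide exchange factor GrpE was called lower, with 422 and 134 reads (log2 −1.67), and the other GrpE contig had 62.3 and 66.9 reads. The GrpE contigs were not summed. The motor genes thus did not move as a block. Both regulators and 1 GrpE contig were called lower, and the tether and the Hsp70 contig were within counting error of no change.

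The channel subunits of TIM23 changed less. Tim23 had 660 and 526 reads (log2 −0.34, −0.51 to −0.18). Tim17-B, the second channel subunit, had 2 contigs in cluster CL4343: contig 2 was called lower, with 206 and 19.1 reads (log2 −3.44), and contig 1 was not, with 370 and 334 reads. Summed over the cluster, 576 and 353 reads gave a log2 of −0.72 (−0.92 to −0.53), under 2-fold. Tim21, which links TIM23 to TOM, had 101 and 66 reads. The receptor TIM50 had 34 and 50 reads and Tim22, the channel for carrier proteins, 56 and 67 reads, with intervals that included 0.

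The small Tim proteins, chaperones that carry hydrophobic precursors across the intermembrane space, gave mixed values. Tim9 and Tim10 form a hexamer, as do Tim8 and Tim13. Both Tim10 unigenes had fewer PA reads: Unigene2786_All, called lower, had 79 and 29 (log2 −1.46, −2.13 to −0.83), and Unigene17023_All had 65 and 36 (log2 −0.87). Of the Tim8 A unigenes, Unigene14656_All was called lower with 172 and 84 reads (log2 −1.05), and Unigene14847_All had 139 and 99 reads. The 4 Tim9 unigenes were spread in both directions. Unigene10629_All was called higher, with 21 and 63 reads (log2 1.57, 0.84 to 2.36). Its best Nr hit was in *Pan troglodytes*, and whether it is of the scallop was not tested. Unigene4225_All had 97 and 187 reads, and the contigs of cluster CL5336 had 260 and 138 reads (contig 2) and 41.8 and 27.3 reads (contig 1). Cluster CL5336 summed to 302 and 165 reads (log2 −0.89, −1.17 to −0.61). Summed over the 4 unigenes, which may not be of 1 gene, Tim9 had 420 and 415 reads (log2 −0.03, −0.23 to 0.17). Its partner Tim10 summed to 144 and 65 reads (log2 −1.16, −1.61 to −0.73). Cluster CL5336 was thus lower as Tim10 was, and the other Tim9 unigenes were not. Tim13-B (101 and 122 reads) and Tim10B (120 and 101 reads) were not called.

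Over both membranes, 3 of 26 import unigenes (11.5%) were called higher and 7 (26.9%) lower, where all unigenes gave 13.3% and 10.7%. Their reads summed to 7623 and 4465 (log2 −0.79, −0.84 to −0.73). TOM7 carried much of this sum: without it the log2 was −0.57 (−0.63 to −0.51), and without TOM7, Tim14 and Tim16 it was −0.37 (−0.43 to −0.30). Grouped by protein name, 1 of 18 import proteins was called higher and 4 lower, and the intervals of 11 lay below 0. The shares of all unigenes are of unsummed unigenes and are no background for these counts by name.

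**Figure D3:**
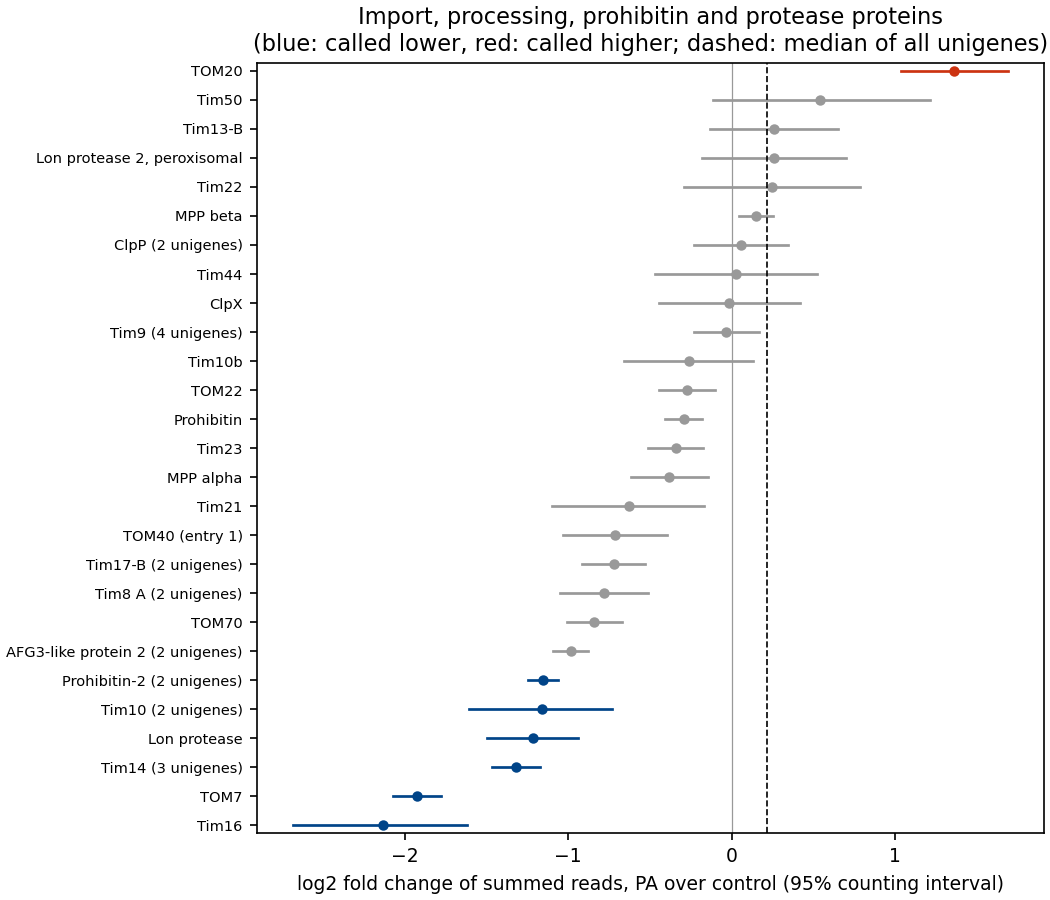
Log2 fold change of the reads summed over unigenes of the same name for 27 import, processing, prohibitin and protease proteins, with 95% counting intervals; blue names proteins called lower, red called higher, and the dashed line the median of all unigenes (0.21). The intervals of 16 proteins lie below 0 and those of 2 above it, TOM20 and the beta subunit of the processing peptidase (MPP beta).

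The processing peptidase, a dimer of an alpha and a beta subunit that cleaves presequences in the matrix, had no called member. The beta subunit (Unigene16693_All) had 1448 control and 1622 PA reads (log2 0.15, 0.05 to 0.25) and the alpha subunit (Unigene18833_All) 343 and 266 reads (log2 −0.38, −0.62 to −0.15). The sign of the beta subunit turned under TMM scaling (−0.10) and under the median of ratios (−0.07).

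Of the prohibitin ring, prohibitin-2 was the subunit that was called. Its 2 contigs (CL2183) had nearly the same length, 1893 and 1881 bp. Contig 1 had 765 control and 12.5 PA reads (log2 −5.95, −6.81 to −5.11), and contig 2 had 2444 and 1445 reads (log2 −0.77, −0.87 to −0.68). As a cluster, prohibitin-2 had 3209 and 1458 reads and was 2.22-fold lower (log2 −1.15, −1.24 to −1.06). Its partner prohibitin (Unigene16487_All) had 1371 and 1130 reads (log2 −0.29, −0.41 to −0.18) and was not called, so that the ratio of the subunits' reads moved toward prohibitin in the PA library.

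Among the proteases, Lon and AFG3-like protein 2 had fewer PA reads and Clp did not. Lon (Unigene13367_All), which degrades oxidised matrix proteins, had 363 and 158 reads, 9.70 and 4.18 FPKM, and was called lower (log2 −1.21, −1.49 to −0.94). AFG3-like protein 2, a subunit of the inner membrane protease that faces the matrix, was found as 2 unigenes. Unigene17600_All was called lower with 277 and 134 reads (log2 −1.06, −1.37 to −0.76). The more abundant Unigene5972_All had 1914 and 984 reads (log2 −0.97, −1.09 to −0.86), just under 2-fold, and was called lower under TMM and median-of-ratios scaling. ClpX, the unfolding ring of the Clp protease, had 92 reads in each library. Its proteolytic partner ClpP had 101 and 87 reads in one unigene and 99 and 123 in the other. Lon protease homolog 2, which the words also collected, is a peroxisomal enzyme and had 82 and 99 reads.

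The mitoribosome was the largest group, with 29 small and 45 large subunit proteins. Unigenes were often single for a protein, and with the reads of the same protein summed, 68 of 74 proteins were not called, 5 were called higher and 1 lower. No share over all genes summed in this way is given, so these counts have no background. Before summing, 10 of 88 unigenes (11.4%) were called higher and 7 (7.95%) lower, where all unigenes gave 13.3% and 10.7%. The intervals of 39 of the 74 proteins included 0, with 26 above it and 9 below. Relative to the median of all unigenes, the intervals of 40 included it, with 12 above and 22 below.

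In the large subunit, 3 of 45 proteins were called, all of them higher. By unigene, 5 (9.43%) were called higher and 3 (5.66%) lower, both under the 13.3% and 10.7% of all unigenes. L39 (Unigene16607_All) had 57 control and 196 PA reads, 5.49 and 18.7 FPKM (log2 1.77, 1.33 to 2.22). L4 (Unigene1469_All), which has a bacterial counterpart, had 65 and 216 reads, 5.49 and 18.1 FPKM (log2 1.72, 1.31 to 2.14). L54 (Unigene18975_All), which is specific to mitochondrial ribosomes, had 60 and 148 reads (log2 1.29, 0.85 to 1.75). The large subunit proteins with the most reads changed little: L49 had 419 and 321 reads (log2 −0.40, −0.61 to −0.19) and L28 had 416 and 452 reads over its 2 contigs. The large subunit's median of 0.04 became −0.21 under TMM and −0.18 under the median of ratios.

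In the small subunit, S25 (Unigene7052_All) with 63 and 136 reads (log2 1.10, 0.65 to 1.55) and S28 (Unigene21368_All) with 33 and 73 reads (log2 1.13, 0.52 to 1.77) were called higher; neither was called under TMM scaling. S24 (Unigene8566_All), the counterpart of a bacterial protein at the entry of the messenger channel, was the one singleton of the mitoribosome called lower, with 292 and 116 reads, 49.97 and 19.67 FPKM (log2 −1.35, −1.67 to −1.03). S18b had 141 and 76 reads (log2 −0.91, −1.33 to −0.49), and was called lower under TMM (−1.15) and median-of-ratios scaling (−1.12) only. The intervals of 12 small subunit proteins lay above 0 and those of 3 below it. S5, the small subunit protein with the most reads, had 375 and 600 reads (log2 0.66, 0.47 to 0.85) and S9 had 433 and 506 (log2 0.21, 0.02 to 0.40, and −0.03 under TMM). S29, also known as the death-associated protein DAP3, had 114 and 93 reads. In mammals S30 and S18a sit in the large subunit, and S36 has been assigned to the 2-oxoglutarate dehydrogenase complex; none of the 3 was called, with log2 values of 0.45, −0.01 and 0.40.

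**Figure D4:**
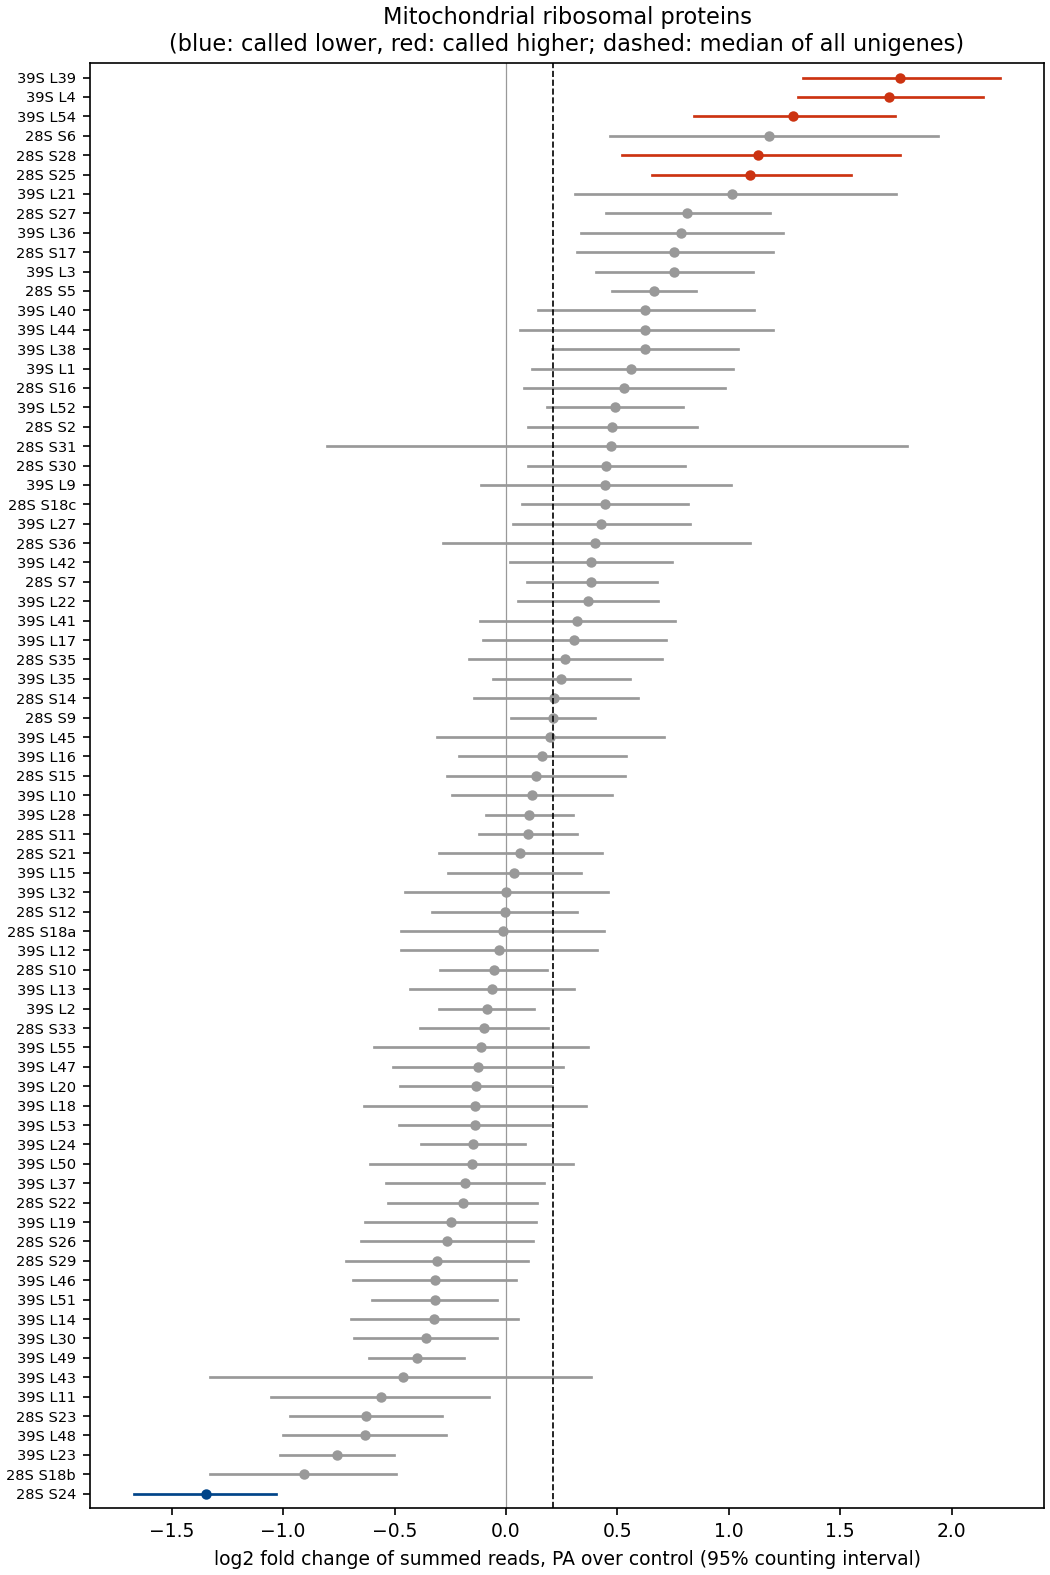
Log2 fold change of the reads summed by name for 74 mitochondrial ribosomal proteins, with 95% counting intervals, ordered by value; red were called higher, blue lower, and the dashed line is the median of all unigenes (0.21). Values run from −1.35 (S24) to 1.77 (L39), and 68 proteins are not called.

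Contigs of one cluster can be near-identical copies, isoforms or alleles between which reads may be divided differently in each library. Of the 126 members, 34 were contigs of 15 clusters, and 16 of them were called. Of the 34 contigs, 6 (17.6%) were called higher and 10 (29.4%) lower, where all unigenes gave 13.3% and 10.7%. For 3 of these 16 the cluster was called in the same direction, for 12 the cluster was not called, and for 5 the cluster had the other sign. No cluster was called higher, and 2 were called lower (Tim14 and prohibitin-2). S7 showed this most plainly. Its cluster (CL801) held 8 contigs, 4 of them with an S7 hit. Contig 2 had 163 reads in control gills and 0 after PA, which is at least 55.1-fold lower when 3 reads are taken for 0. Contigs 3, 4 and 6 had 1.24, 6.95 and 3.79 control reads and 51.2, 92.7 and 86.8 PA reads, log2 5.35 (3.11 to 10.99), 3.72 (2.62 to 5.07) and 4.48 (3.02 to 6.34). Over the whole cluster, with its contigs that had no S7 hit, the reads were 336 and 476 (log2 0.49, 0.28 to 0.69). The 4 contigs with an S7 hit summed to 175 and 231 reads (log2 0.38, 0.10 to 0.68), so that their 4 large changes left a small one.

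Contigs of S33, S18c and L48 also differed from their cluster sums. Contig 1 of S33 (CL1644) had 64.4 control reads and 0 after PA, at least 21.7-fold lower, while contig 2 had 146 and 198, and the cluster 210 and 198 (log2 −0.10). Contig 2 of S18c (CL3564) had 25.6 reads and none, at least 8.62-fold lower, while contig 1 had 81.4 and 147 reads and the cluster 107 and 147 (log2 0.44). For L48 (CL5257), contig 1 had 77.4 and 10.1 reads, contig 2 had 36.8 and none, at least 12.4-fold lower, and contig 3 had 46.9 and 94.95 reads, for a cluster sum of 161 and 105 (log2 −0.63). One contig each of L20 (CL4809, 84.4 and 34.1 reads) and L24 (CL370, 21.5 and 57.8 reads) was called, in opposite directions, with cluster log2 values of −0.13 and −0.15. Without contigs, the 92 singletons had 7 (7.61%) called higher and 7 (7.61%) lower and a median of 0.02. Both shares were under the 13.3% and 10.7% of all unigenes. L53 (CL186, 155 and 142 reads) had a weak hit on a contig whose cluster also holds a phosphatidylinositol kinase, and its cluster sum does not stand for L53.

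**Figure D5:**
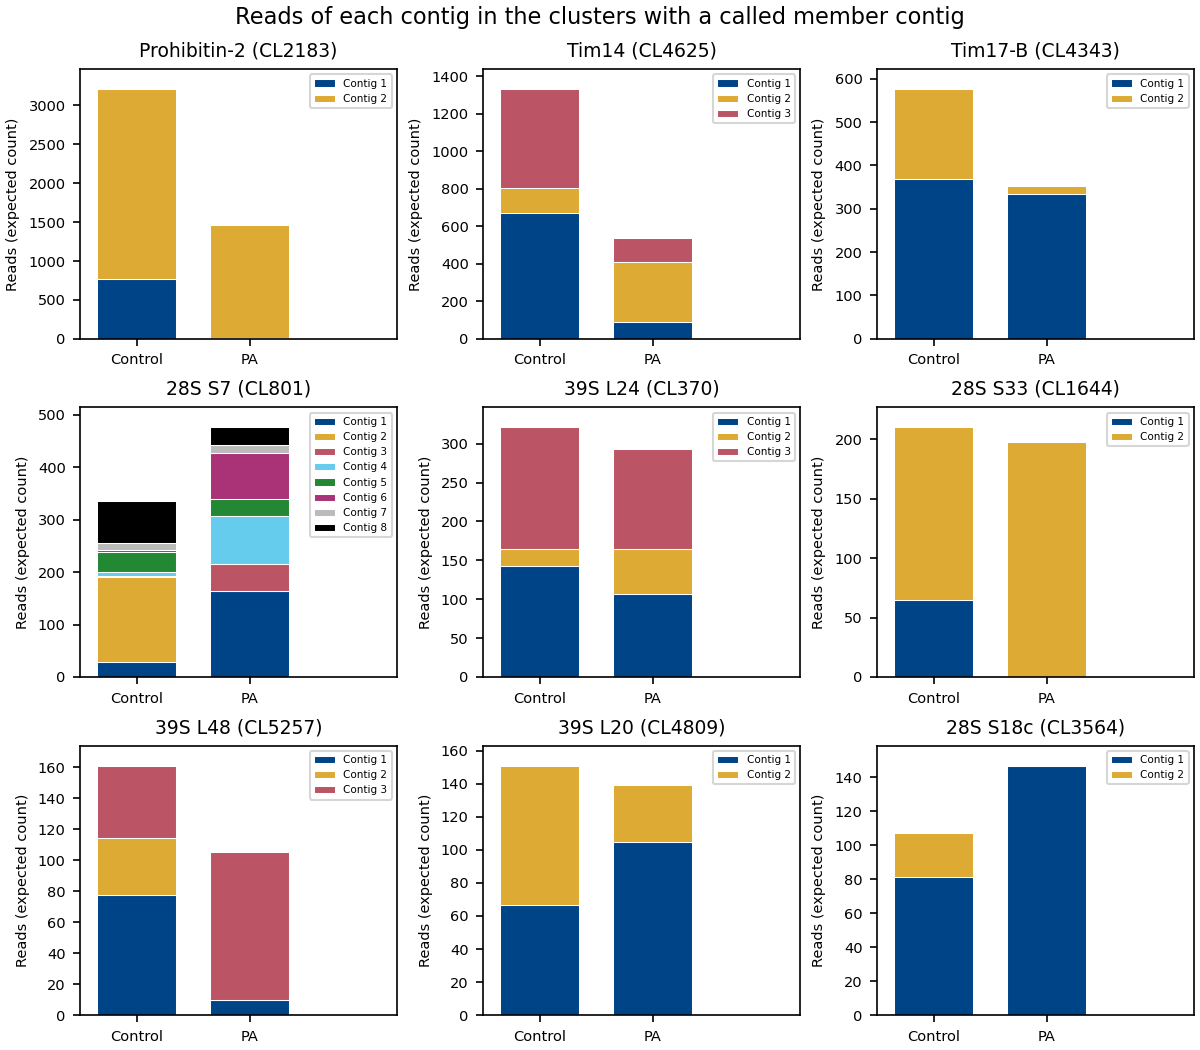
Reads (expected counts) of each contig in the control and PA library, stacked, for the 9 clusters with a called member contig. The stacks of Tim14 (1331 and 539 reads) and prohibitin-2 (3209 and 1458) differ more than 2-fold in total height, whereas those of S33, L20 and L24 change in the colours more than in height.

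Genes that work with the members were taken from 7 lists of 72 unigenes, of which 8 (11.1%) were called higher and 8 (11.1%) lower, near the 13.3% and 10.7% of all unigenes, with a median of 0.01. Among them was the disulfide relay, which traps small Tim proteins in the intermembrane space by oxidising them. Its receptor MIA40 was called lower in both unigenes, MIA40-A with 184 control and 13 PA reads (log2 −3.84, −4.77 to −3.03) and MIA40-B with 90 and 11 reads (log2 −3.04, −4.10 to −2.14). The MIA40-A unigene was contig 1 of a cluster (CL5244) that was not summed, so that its change may not be that of the gene. ALR, the oxidase that recycles MIA40, had 21 and 5 reads and was not called. Beside them the small Tims Tim8 A and Tim10 had lower sums, as had cluster CL5336 of Tim9. The intervals of Tim9 over all its unigenes, Tim10B and Tim13-B included 0. Together the 10 small Tim unigenes had 1096 and 886 reads (log2 −0.32, −0.45 to −0.19). In the same list of 11 other import factors, metaxin-2, of the outer membrane sorting machinery, was called higher with 63 and 146 reads, and its partner metaxin-1 had 292 and 166 reads (log2 −0.83). SAM50, the core of that machinery, had 436 and 444 reads.

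Of 8 chaperone unigenes, 3 (37.5%) were called lower and 1 (12.5%) higher, where all unigenes gave 10.7% and 13.3%. Their median was −0.88. The call higher and 1 of those lower were contigs of a single cluster of Hsp75 (CL964), a chaperone of the Hsp90 family: contig 1 had 52.95 and 114 reads, and contig 2 had 127 and 0. Hsp10, the lid of the folding chamber, was called lower with 538 and 242 reads (log2 −1.17, −1.39 to −0.95). Hsp60, its barrel, had 630 and 364 reads (log2 −0.81, −0.997 to −0.62) and was not called. Of the 11 other proteases, 2 (18.2%) were called lower and 2 (18.2%) higher. The rhomboid protease PARL had 618 and 141 reads (log2 −2.15, −2.42 to −1.88). ATP23 had 69 and 29 reads (log2 −1.26). The intermediate peptidase, which trims some precursors after the processing peptidase, rose from 47 to 106 reads (log2 1.16), and Xaa-Pro aminopeptidase 3, whose yeast counterpart removes a further residue, from 66 to 148 (log2 1.15). Paraplegin, the partner of AFG3-like protein 2, had 558 and 371 reads (log2 −0.60, −0.80 to −0.41) and YME1L, of the protease that faces the intermembrane space, 1072 and 728 reads (log2 −0.57, −0.71 to −0.44).

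On the side of translation, the elongation factor EF-Tu, which brings transfer RNA to the mitoribosome, was called higher with 185 and 532 reads (log2 1.51, 1.26 to 1.76), while elongation factor G had 134 and 74 reads (log2 −0.87). Of 16 unigenes of translation factors, 2 were called higher and 1 lower, and the others called were GUF1 fragments with 36 reads or fewer in either library. None of 13 unigenes of ribosome assembly and rRNA modification was called by the Audic and Claverie test (median 0.63). Of the 2 unigenes of mitochondrial DNA maintenance and transcription, TFAM had 110 and 201 reads (log2 0.86, 0.51 to 1.203). Among 11 fusion and fission unigenes 1 was called, mitofusin-1, with 4 and 35 reads.

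Beside the nearest other groups of genes, the median of the mitoribosome (0.18) was close to that of the nuclear-encoded respiratory chain (0.16), and that of the import genes (−0.56) was not, while all 3 differed in summed reads. The 65 respiratory chain unigenes, whose proteins also enter mitochondria from the cytosol, had 4 called higher and 2 lower, and their reads summed to 64385 and 77518 (log2 0.25, 0.24 to 0.27). The 197 unigenes of cytosolic ribosomal proteins, for 80 protein names, had a median of −0.37. None was called higher and 41 (20.8%) were called lower by the Audic and Claverie test, where all unigenes gave 13.3% and 10.7%. They formed 193 clusters and singletons with a median of 113 reads, and 82 unigenes were at least 2-fold lower and 1 higher. Their best Nr hits were not checked for an animal, so they may not all be of the scallop. For the members, an animal hit does not show this either. Their summed reads gave a log2 of −0.14 (−0.14 to −0.13). The interval of the import sum (−0.84 to −0.73) and that of the mitoribosome sum (0.07 to 0.15) overlapped neither this interval nor that of the respiratory chain. With 1 library per condition, these differences between groups were not tested beyond counting error.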

How the data were processed

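Per the labels, 1 gill library was sequenced per condition. The authors used SOAPnuke for read filtering, Trinity and TGICL for the assembly of unigenes, Bowtie for mapping and Blast for annotation. The deposited expected counts and FPKM of each unigene came from RSEM. Expected counts were not whole for 17.9% of unigenes and were rounded for the test. The authors' fold changes, p-values and FDR were not used, nor were 2 expression columns of the same table, which served for its annotation and unigene lengths. Unigenes absent from a library's table counted as 0 reads, and an FPKM of 0 was set to 0.01 for log2 fold changes. The two-sided Audic and Claverie test ran over all 60308 unigenes with Benjamini-Hochberg adjustment. A library at 0 was set to 3 reads for a bound. PCR copies are not independent, so intervals cover counting error only.

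The members and lists were chosen with earlier results of these data known. Named were every called member, the 2 members with most reads per group, the largest changes, all TOM, processing peptidase, prohibitin and protease members, and contigs of their clusters. Further TIM members, other single members and genes of the lists were named after their values were seen. The calling was tested on simulated data. Alternatives were TMM (edgeR 4.0.16) and median-of-ratios scaling (DESeq2 1.42.0), summed clusters, read minimums, pseudocounts, thresholds, animal hits and edgeR's exact test at assumed coefficients of variation. Python 3.11.15, numpy 2.4.6, pandas 2.3.3, scipy 1.17.1, matplotlib 3.10.9 and R 4.3.3 were used. No genome of the species or sequence table was used.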

Additional observations from a re-analysis of the deposited data

How the results depend on the processing

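No paired analysis was possible because each condition has 1 library, and for the same reason no replicate could be left out. The main counts were 13 members called higher and 17 lower with a median of −0.013. TMM scaling gave 8 higher and a median of −0.26, and the median of ratios a median of −0.23. The median of the mitoribosome turned from 0.18 to −0.07 and −0.04 under these scalings, which shift all unigenes alike. Summing the reads of each cluster left 7 clusters and singletons higher and 9 lower, and summing by protein name, chosen after seeing the data, 6 and 7. Neither summed count has a share over all genes beside it. A fold change of at least 4 left 3 and 10. Under edgeR's exact test, an assumed coefficient of variation of 0.2 left 3 higher and 11 lower. With 0.4 it left 0 and 3 (prohibitin-2 contig 1, S33 contig 1 and S7 contig 2), and 4 members were then higher at an unadjusted p under 0.05. TOM7 and Tim16 were the singletons called at 0.2. With clusters summed, 5 called contigs took the other sign: S18c contig 2 (0.44), L24 contig 2 (−0.15), Tim14 contig 2 (−1.32), L48 contig 3 (−0.63) and S7 contig 2 (0.49). Over all unigenes, 55.4% of calls were higher, 41.6% under TMM and 43.1% under the median of ratios. The counts of calls stayed within 1.5 times the main one under no minimum of reads, a minimum of 50, animal hits, an FDR of 0.05 and a fold change of 1.5. Variation between scallop pools is not measured in these libraries. Low-read unigenes such as TIM50 (34 and 50 reads, log2 0.54, −0.12 to 1.21) could hide a change, even one over 2-fold.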
